A study of Sus scrofa with 8 samples.

Results

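Cell division in the liver was followed through 40 genes of the cell cycle, 17 that act in S phase (DNA replication) and 23 that act in mitosis. They were found by gene symbol in the expression table, where all 40 were present among 18103 genes and new transcripts. RNA came from male Landrace x Large White pigs, with 2 pigs pooled in each library. The initial state (4 pools) was sampled at 4 months of age on the control diet, by biopsy during laparotomy. The steatosis group (4 pools) came from the same animals at 6 months of age, after 2 months on a steatotic diet rich in saturated fat, fructose, cholesterol and cholate and deficient in choline and methionine, and these livers were taken after euthanasia. Age and the way of sampling differed between the groups together with the diet, so the 3 cannot be told apart.

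An adult liver is a largely resting organ: most hepatocytes have left the cycle, but they can enter it again after tissue loss or injury, and resident or recruited immune cells divide there too. The pigs here were 4 and 6 months old, and whether their livers were at rest in this sense was not tested. A cell that commits to division frees E2F factors from the retinoblastoma protein, and E2F switches on the genes for licensing replication origins and for making deoxynucleotides. Later in the cycle, FOXM1 and related factors switch on the cyclins, kinases and spindle proteins of mitosis, most of which are degraded again as the cell divides. These transcripts are therefore widely used as a measure of proliferation in a tissue. The comparison asks how they differed in the liver before and after fat accumulation.

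Levels are FPKM (fragments per kilobase of transcript, scaled to the mapped fragments of the library), which can be compared between genes since they are per length. Changes are log2 fold changes of FPKM + 0.1, steatosis over initial state, from limma, written as log2 change, and a gene is called higher or lower when its adjusted p is under 0.01 and its log2 change is beyond 1. A second limit, an adjusted p under 0.05 at any fold, is named where it is used. All SDs are between 4 pools.

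Many genes of both phases, though not all, were higher in steatosis. Of the 16 S phase genes that could be tested, 8 were called higher and 0 lower, and of the 23 mitosis genes, 18 were called higher and 0 lower. Among the 13175 genes tested, 6.01% were called higher and 0.334% lower. At the second limit, 10 S phase and 21 mitosis genes were higher and 0 lower, against 26.7% of all tested genes higher and 2.28% lower. The lowest steatosis pool lay above the highest initial pool in 10 of 17 S phase genes and in 22 of 23 mitosis genes, as it did in 29.6% of all tested genes. The reverse held in none of the 40, against 2.53% of all tested genes. The median log2 change was 1.03 for the S phase genes and 1.33 for the mitosis genes, beside 0.25 for all genes tested.

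Most of these transcripts were scarce. The mean FPKM of the initial state was under 1 for 22 of the 40 genes, which held for 17% of the genes tested, and the median initial level of the genes tested was 4.55 FPKM. S phase genes ranged from 0.155 FPKM (CDC6) to 11.7 FPKM (RRM1) in the initial state, and mitosis genes from 0.123 FPKM (TTK) to 4.06 FPKM (BIRC5). No gene of the 40 was listed at 0 in any pool. TTK and FOXM1 passed the filter on low values (0.3 FPKM in at least 4 pools) through their steatosis pools alone, so a difference was built into their passing. Both are counted among the 18 mitosis genes called higher. CDC6 did not pass it and was compared by an exact permutation test.

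**Figure D1:**
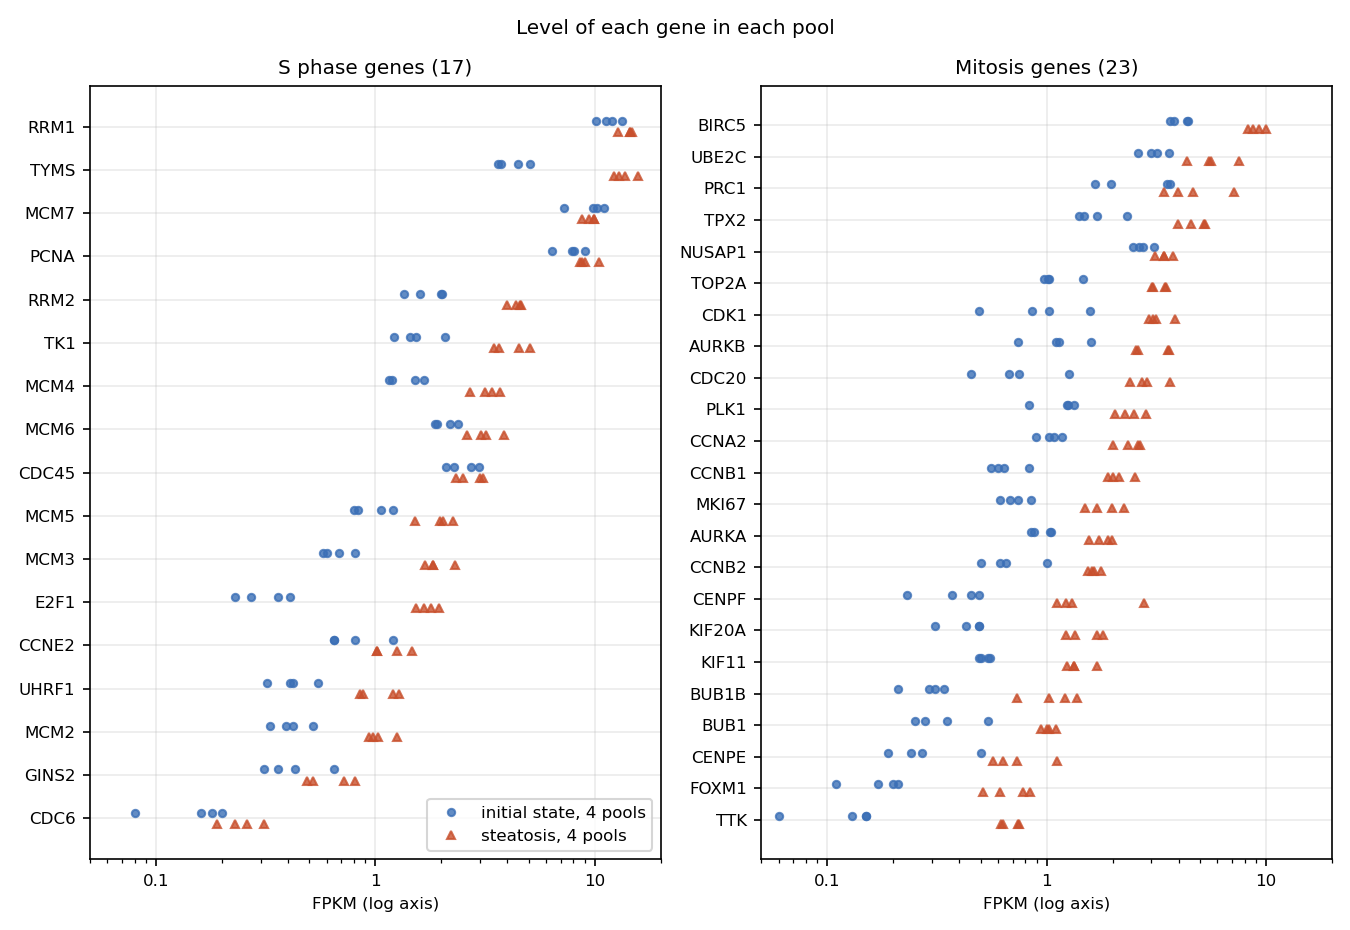
Level of each of the 40 genes in each pool, in FPKM on a log axis, with S phase genes on the left and mitosis genes on the right, ordered by their steatosis mean. Circles are the 4 initial pools and triangles the 4 steatosis pools; the groups are separate in 22 of 23 mitosis genes and in 10 of 17 S phase genes.

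FPKM from different libraries depend on a common scale. The log2 change was above 0 in 78.7% of the genes tested. When each library was rescaled by its median ratio, the median of all genes tested moved from 0.25 to -0.01, and the medians of the S phase and mitosis genes became 0.79 and 1.11. In that scale 5 S phase and 12 mitosis genes were called higher and 0 lower, and over all genes the calls changed from 792 higher and 44 lower to 411 higher and 83 lower. A call lost on this scale is named with its gene below.

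The factors that switch on either phase were both called higher, though FOXM1 passed the filter through its steatosis pools alone. E2F1, the transcription factor that opens S phase (chr17:37178587-37190118 on Sscrofa11.1), was at 0.36, 0.41, 0.23 and 0.27 FPKM in initial pools 1 to 4 and at 1.67, 1.80, 1.95 and 1.54 FPKM in steatosis pools 1 to 4. The lowest steatosis pool was far above the highest initial pool. Its log2 change of 2.16 (SE 0.19, adjusted p = 8.14e-05) was the largest of the 39 tested cell cycle genes, and these levels stand for about 11 to 19 fragments per initial pool and 72 to 91 per steatosis pool. FOXM1, which drives the genes of G2 and mitosis (chr5:67246219-67263215), was at 0.20, 0.17, 0.21 and 0.11 FPKM in the initial pools and at 0.78, 0.51, 0.61 and 0.84 FPKM in steatosis. The groups did not overlap, and the log2 change was 1.52 (SE 0.23, adjusted p = 0.00153) on about 7 to 13 fragments per initial pool and 31 to 51 per steatosis pool.

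Origins are licensed in G1, when CDC6 loads the MCM2 to MCM7 ring, the core of the replicative helicase. CDC6 (chr12:22101281-22118441) was at 0.08, 0.20, 0.16 and 0.18 FPKM in the initial pools and at 0.19, 0.31, 0.26 and 0.23 FPKM in steatosis, with steatosis pool 1 inside the initial range. The means were 0.155 ± 0.0526 and 0.248 ± 0.0506 FPKM (SD, n = 4), and a two-sided exact permutation test gave p = 0.0571, where the smallest possible is 0.0286. With about 6 to 15 fragments per initial pool and 14 to 24 per steatosis pool, it was the scarcest S phase gene of both groups.

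The 6 helicase subunits did not move alike. MCM2 (chr13:72630378-72651270) was at 0.42, 0.33, 0.52 and 0.39 FPKM in the initial state and at 0.94, 1.25, 0.98 and 1.03 FPKM in steatosis. MCM3 (chr7:46084648-46104425) was at 0.68, 0.58, 0.81 and 0.60 FPKM and then at 1.84, 2.31, 1.69 and 1.83 FPKM. MCM4 (chr4:79674737-79686964) was at 1.51, 1.19, 1.67 and 1.16 FPKM and then at 2.71, 3.72, 3.42 and 3.16 FPKM. In these 3 subunits every steatosis pool was above every initial pool, and all were called higher, with log2 changes of 1.16 (SE 0.19, adjusted p = 0.00183), 1.39 (SE 0.17, adjusted p = 0.000404) and 1.18 (SE 0.16, adjusted p = 0.000804). After rescaling by the median ratio, MCM2 (0.93) and MCM4 (0.92) fell short of the limit of 1 and MCM3 (1.15) kept the call.

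MCM5 and MCM6 changed less. MCM5 was at 1.06, 0.80, 1.21 and 0.83 FPKM in the initial pools and at 1.51, 1.98, 2.26 and 2.04 FPKM in steatosis, a log2 change of 0.93 (SE 0.18, adjusted p = 0.00512). MCM6 (chr15:15923638-15978587) was at 2.18, 1.92, 2.38 and 1.88 FPKM and then at 2.63, 3.85, 3.18 and 3.04 FPKM, a log2 change of 0.57 (SE 0.15, adjusted p = 0.0177). The initial and steatosis pools were separate for these subunits, which passed the second limit but not the limit on fold. After rescaling by the median ratio, MCM6 no longer passed the second limit (0.31, adjusted p = 0.14). MCM5 passed the limit on fold without initial pool 3 (1.03) or without steatosis pool 1 (1.04).

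MCM7, the most abundant subunit (chr3:8005890-8014047), was at 11.04, 10.29, 9.88 and 7.25 FPKM in the initial pools and at 8.74, 9.96, 9.41 and 9.95 FPKM in steatosis. The steatosis pools lay within the initial range, and the log2 change was 0.00 (95% interval -0.30 to 0.30, adjusted p = 0.999). After rescaling by the median ratio it was -0.27 (adjusted p = 0.0979). Because a ratio within a library is free of the scale between libraries, MCM7 was set against its partners, a choice made after the values were seen. MCM7 exceeded MCM3 by 14.6 ± 2.87 times in the initial state and by 5.02 ± 0.591 times in steatosis (SD, n = 4), and MCM2 by 23.8 ± 6.08 and 9.13 ± 0.792 times. MCM6 exceeded MCM3 by 3.15 ± 0.157 and 1.66 ± 0.185 times. None of these 3 ratios overlapped between the groups, so the subunits changed unequally whatever the scale.

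**Figure D2:**
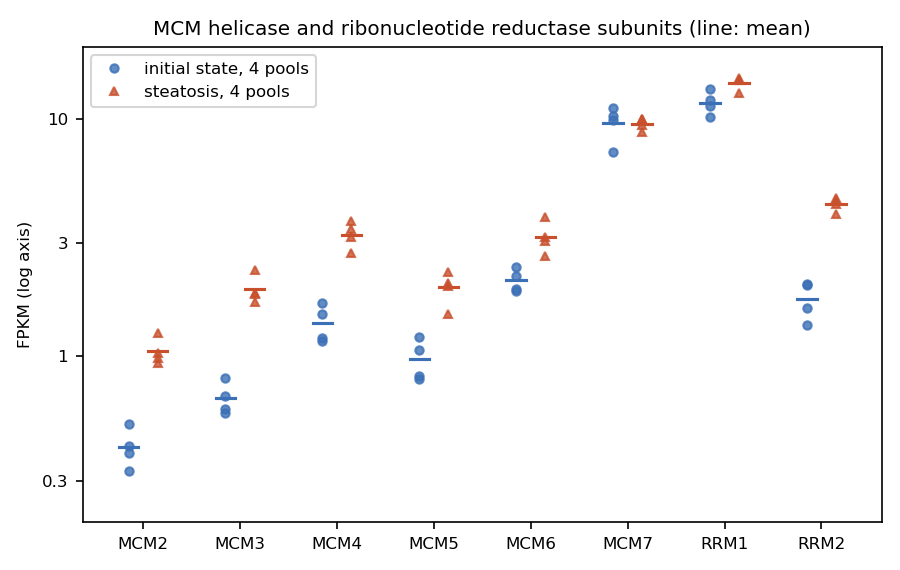
FPKM on a log axis of the 6 subunits of the MCM helicase and the 2 subunits of ribonucleotide reductase, with each pool as a point and the group mean as a line. MCM2, MCM3, MCM4 and RRM2 are clearly separate between initial state (circles) and steatosis (triangles), while MCM7 overlaps fully and RRM1 in part.

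Once loaded, the ring is turned on by CDC45 and the GINS complex, and PCNA clamps the polymerases to the template. CDC45 (chr14:51133111-51158604) was at 2.73, 2.97, 2.28 and 2.09 FPKM in the initial pools and at 3.10, 3.01, 2.52 and 2.34 FPKM in steatosis. The pools overlapped, the log2 change was 0.12 (95% interval -0.22 to 0.47, adjusted p = 0.576), and it turned to -0.14 after rescaling by the median ratio. GINS2, a subunit of GINS, overlapped as well, at 0.31 to 0.65 FPKM in the initial state and 0.49 to 0.81 FPKM in steatosis, with a log2 change of 0.47 (95% interval -0.09 to 1.02, adjusted p = 0.186). PCNA (chr17:14137746-14142584) was at 6.41, 8.05, 9.08 and 7.90 FPKM and then at 9.06, 10.49, 8.74 and 8.55 FPKM, with initial pool 3 above 3 of the 4 pools from steatosis. The log2 change was 0.23 (95% interval -0.05 to 0.51, adjusted p = 0.191), and -0.04 after rescaling.

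PCNA and MKI67 are both used to stain dividing cells. MKI67, which codes for the Ki-67 antigen (chr14:137266622-137296312), was at 0.74, 0.61, 0.85 and 0.68 FPKM in the initial pools and at 1.49, 1.98, 1.69 and 2.26 FPKM in steatosis. All steatosis pools were above all initial pools, with a log2 change of 1.25 (SE 0.18, adjusted p = 0.000923), and after rescaling the value stood at the limit itself (1.0, not called). PCNA exceeded MKI67 by 11.04 ± 1.89 times in the initial state and by 5.08 ± 0.956 times in steatosis (SD, n = 4), with no overlap, in a comparison likewise chosen after the values were seen. The level of PCNA was above that of MKI67 in every pool.

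CCNE2, the cyclin that activates CDK2 at the entry into S phase, was at 1.2, 0.65, 0.81 and 0.65 FPKM in the initial pools and at 1.02, 1.47, 1.02 and 1.26 FPKM in steatosis. Initial pool 1 lay among the steatosis pools, and the log2 change was 0.50 (95% interval 0.01 to 0.99, adjusted p = 0.112). UHRF1 carries DNA methylation over to the new strand. It was at 0.32, 0.41, 0.55 and 0.42 FPKM and then at 0.88, 1.2, 0.85 and 1.28 FPKM, without overlap, and was called higher with a log2 change of 1.13 (SE 0.21, adjusted p = 0.00388). That call rested on single libraries: in limma the adjusted p was 0.0111 without initial pool 2, 0.0158 without steatosis pool 2 and 0.016 without steatosis pool 4. It was 0.0135 after rescaling.

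The enzymes that supply deoxynucleotides included the most abundant S phase genes. TYMS makes thymidylate (chr6:105642730-105660279) and was at 3.62, 5.09, 4.45 and 3.74 FPKM in the initial pools and at 12.86, 12.20, 13.76 and 15.84 FPKM in steatosis. Even the lowest steatosis pool exceeded the highest initial pool by a wide margin, the log2 change was 1.68 (SE 0.14), and its adjusted p of 5.6e-05 was the smallest of the 39 genes. TK1, the salvage enzyme for thymidine (chr12:3785997-3794824), was at 1.54, 1.22, 2.07 and 1.44 FPKM and then at 4.52, 3.46, 3.67 and 5.07 FPKM. It rose in all 4 pools beyond the initial range, with a log2 change of 1.37 (SE 0.19, adjusted p = 0.00077). E2F1, TYMS and TK1 were the S phase genes that stayed called under each of the 14 alternative settings tried, and TOP2A, CDK1, CDC20 and TPX2 the mitosis genes. Among these settings, E2F1 passed the filter of 1 FPKM through its steatosis pools alone, so a difference was built into its passing there.

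Ribonucleotide reductase is built from RRM1, a long-lived subunit, and RRM2, which is made in S phase and degraded afterwards. RRM2 (chr3:126357198-126367145) was at 1.35, 1.99, 2.01 and 1.60 FPKM in the initial pools and at 4.56, 4.61, 3.98 and 4.39 FPKM in steatosis, separate in all pools, with a log2 change of 1.30 (SE 0.15, adjusted p = 0.00032). RRM1 (chr9:6026151-6065211) was at 11.24, 11.99, 13.34 and 10.12 FPKM and then at 12.79, 14.49, 14.77 and 14.46 FPKM. Steatosis pool 1 fell inside the initial range, and the log2 change was 0.28 (95% interval 0.04 to 0.52, adjusted p = 0.0783), close to the median of all genes. RRM1 exceeded RRM2 by 8.33, 6.03, 6.64 and 6.33 times in the initial pools and by 2.81, 3.14, 3.71 and 3.29 times in steatosis, a ratio that did not overlap and whose choice followed the values.

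The S phase genes that were not called were not the scarce ones alone. MCM7, PCNA and RRM1 are 3 of the 4 most abundant S phase genes of the initial state, and the pools of each overlapped. TYMS, the other of the 4, was called. The range of the log2 changes ran from 0.00 to 2.16 over the 16 S phase genes and from 0.32 to 1.84 over the 23 mitosis genes.

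**Figure D3:**
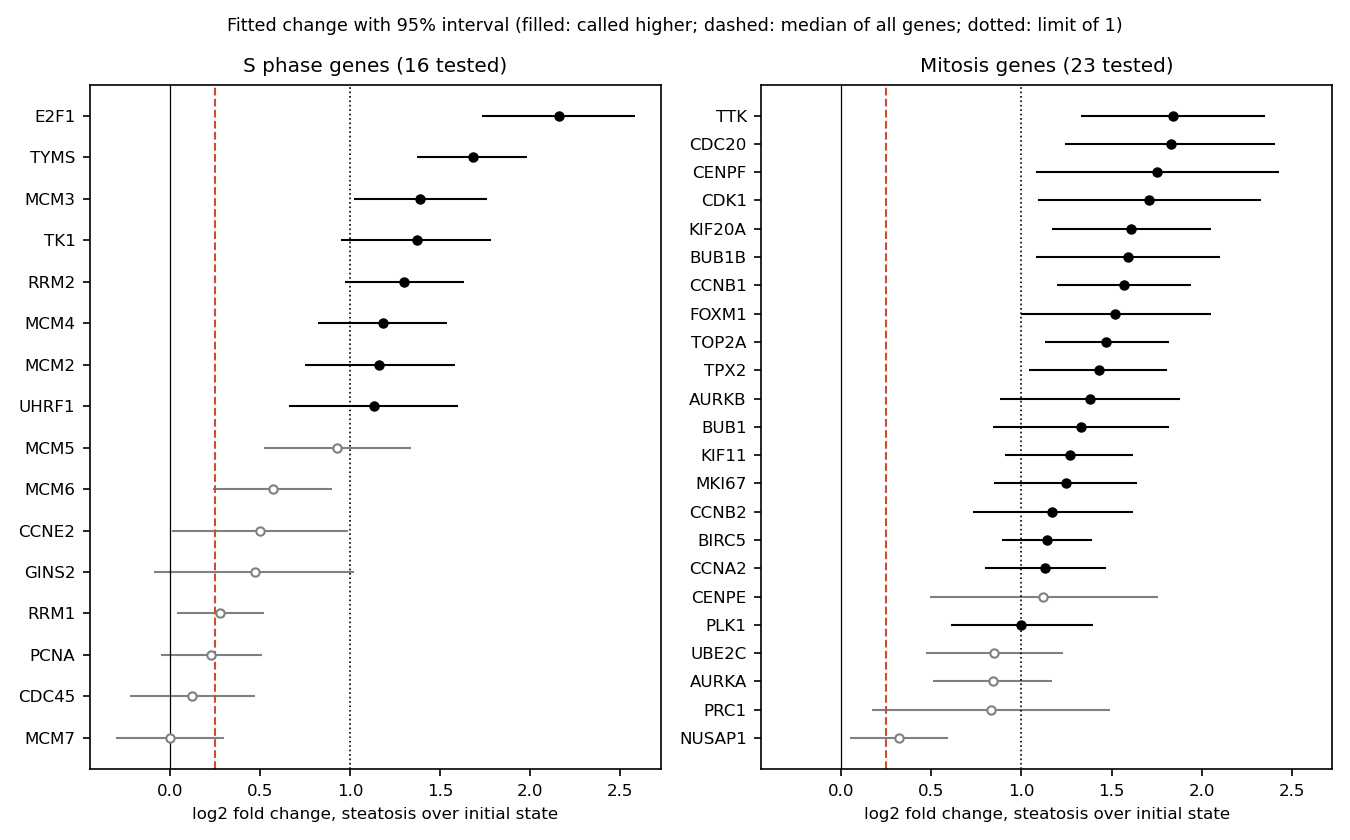
Fitted log2 change (steatosis over initial state) with its 95% interval for the 16 tested S phase genes and the 23 mitosis genes, each panel ordered by size, with filled points for genes called higher. The dashed line is the median of all genes tested (0.25) and the dotted line the limit of 1; 18 mitosis and 8 S phase points are filled.

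The engine of mitosis is CDK1 with its cyclins. CDK1 (chr14:64233945-64255290) was at 0.86, 0.49, 1.57 and 1.03 FPKM in the initial pools and at 3.86, 2.92, 3.15 and 3.04 FPKM in steatosis. The initial pools differed from each other more than the steatosis pools did on the log scale, but none reached them, and the log2 change was 1.71 (SE 0.28, adjusted p = 0.00196). CCNB1, the main mitotic cyclin (chr16:47338239-47348385), was at 0.60, 0.56, 0.83 and 0.64 FPKM and then at 1.91, 2.01, 2.52 and 2.14 FPKM, with pool 3 highest in both groups, and rose by a log2 change of 1.57 (SE 0.17, adjusted p = 0.000204). CCNB2, its partner cyclin, lay between 0.5 and 1.0 FPKM in the initial pools and between 1.54 and 1.77 FPKM in steatosis, with a log2 change of 1.17 (SE 0.20, adjusted p = 0.00238). CCNA2 acts in both S phase and G2. It lay between 0.89 and 1.17 FPKM and then between 2.01 and 2.66 FPKM, with a log2 change of 1.13 (SE 0.15, adjusted p = 0.000658). CCNB2 (0.93) and CCNA2 (0.88) were not called after rescaling by the median ratio.

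Condensed chromosomes need topoisomerase II alpha to untangle the sister strands. TOP2A, its gene (chr12:22001300-22028452), was at 1.03, 0.97, 1.47 and 1.01 FPKM in the initial pools and at 3.01, 3.46, 3.06 and 3.49 FPKM in steatosis. Initial pool 3 stood above the other initial pools, the steatosis pools were close together, and the log2 change was 1.47 (SE 0.16, adjusted p = 0.000207). TOP2A lies 72828 bases from CDC6 on chromosome 12. Its level was well above that of this neighbour in every pool.

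The other mitotic kinases fell into called and uncalled genes. PLK1, which acts at centrosomes and kinetochores, was at 1.25, 1.33, 1.24 and 0.83 FPKM in the initial state and at 2.50, 2.27, 2.04 and 2.84 FPKM in steatosis. The pools were separate, but PLK1 passed the limits narrowly (log2 change 1.0, SE 0.18, adjusted p = 0.00304). The call was lost with pools blocked by their number (adjusted p = 0.0106), without initial pool 4 (0.86), without steatosis pool 1 (adjusted p = 0.0114) or pool 4 (adjusted p = 0.0126), and after rescaling (0.75). AURKA, the aurora kinase of the spindle poles, was at 0.85, 1.04, 1.05 and 0.88 FPKM and then at 1.91, 1.73, 1.56 and 1.98 FPKM. These pools were separate too, and the log2 change of 0.84 (SE 0.15, adjusted p = 0.00284) passed the second limit only.

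AURKB and BIRC5 (survivin) belong to the chromosomal passenger complex, which corrects faulty attachments to the spindle. AURKB (chr12:53410833-53426165) was at 1.10, 0.74, 1.59 and 1.14 FPKM in the initial pools and at 3.6, 2.55, 2.60 and 3.59 FPKM in steatosis, a log2 change of 1.38 (SE 0.22, adjusted p = 0.00193) with no overlap. BIRC5 (chr12:3747276-3755214) was the most abundant mitosis gene, at 3.8, 4.41, 4.35 and 3.67 FPKM and then at 9.25, 8.70, 10.05 and 8.25 FPKM. Its pools lay close together within each group, with the smallest SE of the mitosis genes (0.11) and their smallest adjusted p (0.000146), with a log2 change of 1.14. After rescaling this was 0.87, under the limit on fold. BIRC5 and TK1 lie 30782 bases apart on chromosome 12, and both were called higher.

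TTK, BUB1 and BUB1B serve the spindle checkpoint, which holds the cell in metaphase until all chromosomes are attached. TTK, the kinase that starts the checkpoint signal (chr1:86076576-86125334), was at 0.15, 0.15, 0.13 and 0.06 FPKM in the initial pools and at 0.63, 0.74, 0.75 and 0.62 FPKM in steatosis. It had the largest log2 change of the mitosis genes (1.84, SE 0.23, adjusted p = 0.000489), from about 5 to 12 fragments per initial pool and 52 to 64 per steatosis pool. BUB1 was at 0.25, 0.54, 0.28 and 0.35 FPKM and then at 0.94, 1.02, 1.10 and 1.0 FPKM, a log2 change of 1.33 (SE 0.22, adjusted p = 0.00211), with initial pool 2 highest of its group. BUB1B, which holds back the anaphase complex, was at 0.21, 0.34, 0.31 and 0.29 FPKM and then at 0.73, 1.21, 1.03 and 1.37 FPKM, a log2 change of 1.59 (SE 0.23, adjusted p = 0.000993). In none of the 3 did the groups overlap, and each was called higher.

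The checkpoint acts on CDC20, which activates the anaphase-promoting complex, and UBE2C is the ubiquitin-conjugating enzyme of that complex. CDC20 (chr6:167886266-167890587) was at 0.75, 0.67, 1.27 and 0.45 FPKM in the initial pools and at 2.88, 2.39, 2.72 and 3.64 FPKM in steatosis. Initial pool 4 was the lowest of its group and steatosis pool 4 the highest of its group, and the log2 change was 1.83 (SE 0.26, adjusted p = 0.00101). UBE2C (chr17:48018403-48021542) was at 2.61, 2.98, 3.62 and 3.20 FPKM and then at 5.59, 5.50, 4.36 and 7.52 FPKM. Its pools were separate, and its log2 change of 0.85 (SE 0.17, adjusted p = 0.00588) passed the second limit only.

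At the kinetochore, CENPF and the motor CENPE link chromosomes to microtubules. CENPF (chr9:128948386-129012241) was at 0.45, 0.23, 0.37 and 0.49 FPKM in the initial pools and at 1.31, 1.23, 1.11 and 2.77 FPKM in steatosis. Steatosis pool 4 stood well above the other steatosis pools, and the log2 change was 1.75 (SE 0.30, adjusted p = 0.00271) with it and 1.47 (adjusted p = 0.00465) without it. After rescaling by the median ratio CENPF was not called (1.52, adjusted p = 0.0105). CENPE was at 0.24, 0.19, 0.27 and 0.50 FPKM and then at 0.57, 0.73, 0.63 and 1.12 FPKM. Pool 4 was the highest of both groups, the groups did not overlap, and the log2 change of 1.12 (SE 0.29, adjusted p = 0.0167) was not called. CENPE was called with pools blocked by their number (adjusted p = 0.00905) and without initial pool 4 (log2 change 1.34, adjusted p = 0.0066), while after rescaling by the median ratio it missed the second limit as well (0.9, adjusted p = 0.0673).

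Genes of the spindle itself and of its midzone were divided. KIF11 pushes the spindle poles apart and had very even initial pools, at 0.54, 0.49, 0.55 and 0.50 FPKM, with 1.33, 1.70, 1.24 and 1.33 FPKM in steatosis and a log2 change of 1.27 (SE 0.16, adjusted p = 0.000547). TPX2, which seeds microtubules and activates AURKA (chr17:35431271-35484814), was at 1.48, 1.69, 2.32 and 1.41 FPKM and then at 5.23, 4.53, 3.97 and 5.25 FPKM, a log2 change of 1.43 (SE 0.17, adjusted p = 0.000449). KIF20A, a motor of the midzone and of cytokinesis, was at 0.43, 0.49, 0.31 and 0.49 FPKM and then at 1.23, 1.35, 1.80 and 1.69 FPKM, a log2 change of 1.61 (SE 0.20, adjusted p = 0.000453). These 3 were separate in all pools.

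NUSAP1 and PRC1 bundle microtubules, and neither was called. NUSAP1 was at 2.76, 2.64, 3.10 and 2.47 FPKM in the initial pools and at 3.11, 3.42, 3.77 and 3.44 FPKM in steatosis. The lowest steatosis pool was barely above the highest initial pool, and the log2 change of 0.32 (95% interval 0.05 to 0.59, adjusted p = 0.0742) was near the median of all genes. PRC1 was at 1.96, 3.65, 3.52 and 1.66 FPKM and then at 4.63, 7.13, 3.43 and 3.97 FPKM. It was the only mitosis gene whose pools overlapped, through steatosis pool 3, and its log2 change was 0.83 (95% interval 0.17 to 1.49, adjusted p = 0.0602). With pools blocked by their number its adjusted p was 0.0291, which passed the second limit.

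Both sets were also summarised within each pool, as the median over genes of the deviation from the mean of the initial pools, on the log2 scale. The S phase genes gave 0.03, 0.02, 0.22 and -0.15 in the initial pools and 0.80, 0.97, 0.87 and 1.01 in steatosis. The mitosis genes gave -0.08, -0.02, 0.16 and -0.10 and then 1.23, 1.35, 1.28 and 1.58. Pool 3 was the highest of the initial state and pool 4 the highest of steatosis in both sets. The summed level of the mitosis genes was 23.3 to 31.0 FPKM in the initial pools and 57.6 to 66.1 FPKM in steatosis, and that of the S phase genes 40.8 to 52.1 and 69.8 to 76.7 FPKM.

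**Figure D4:**
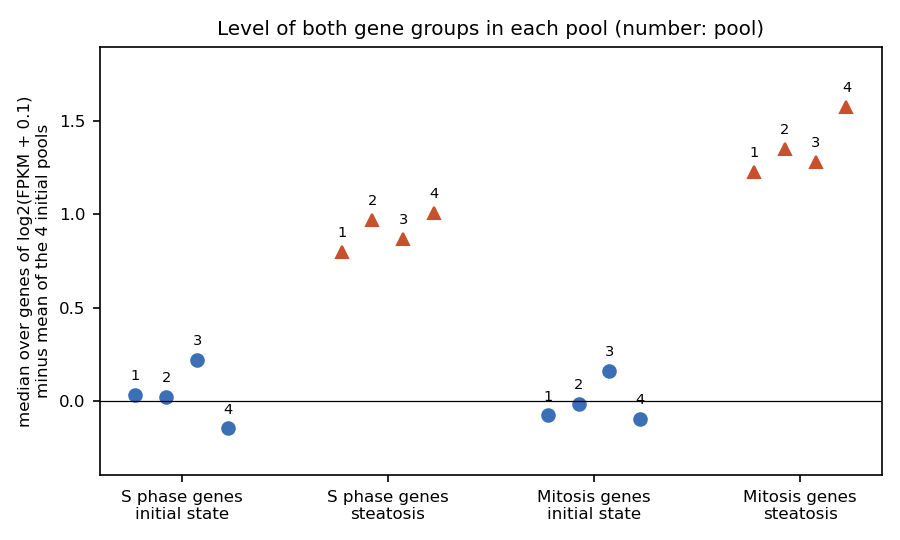
Median over genes of log2(FPKM + 0.1) minus the mean of the 4 initial pools, for S phase and mitosis genes in each pool, with the pool number above each point. Steatosis pools lie at 0.80 to 1.01 for the S phase genes and at 1.23 to 1.58 for the mitosis genes, apart from the initial pools at -0.15 to 0.22.

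Other genes of the cycle were read from lists of known members. Of 70 tested G2 and M genes outside the 23, 26 were called higher and 0 lower, 54 were higher at the second limit, and their median log2 change was 0.90. The shares over all tested genes were 6.01% and 26.7%. The called genes CDCA5, NEK2, KIF15, KIF18B and ASPM passed the filter on low values through their steatosis pools alone. A difference was thus built into their passing, and the same held for some genes that were not called. Of these named genes, NEK2 alone kept its call after rescaling by the median ratio. STMN1, which destabilises microtubules, went from 7.72 ± 0.597 to 20.8 ± 4.74 FPKM (log2 change 1.40, adjusted p = 0.000212), and PBK, a mitotic kinase, from 0.320 ± 0.171 to 2.25 ± 0.448 FPKM (2.54, adjusted p = 0.000234). RACGAP1, of the midzone, went from 1.05 ± 0.143 to 2.64 ± 0.160 FPKM (1.26, adjusted p = 0.000272), and KIFC1, a spindle motor, from 0.555 ± 0.124 to 1.73 ± 0.133 FPKM (1.5, adjusted p = 0.000334).

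Further S phase genes formed a list of 56. Of 52 tested, 5 were called higher and 0 lower, 24 were higher at the second limit, and the median log2 change was 0.36. The count at the main limit is to be read against 6.01% of all tested genes, and that at the second against 26.7%. The called gene POLE passed the filter on low values through its steatosis pools alone, and it lost its call after rescaling by the median ratio (0.83). CDT1, which loads the MCM ring with CDC6, went from 0.330 ± 0.0271 to 1.04 ± 0.184 FPKM (log2 change 1.40, adjusted p = 0.000753), and BRCA1, of DNA repair, from 0.273 ± 0.0492 to 0.898 ± 0.139 FPKM (1.42, adjusted p = 0.000862). ATAD2, a chromatin protein, was at 0.563 ± 0.0492 and 1.32 ± 0.143 FPKM (1.10, adjusted p = 0.001) and POLE2, a subunit of polymerase epsilon, at 0.323 ± 0.0964 and 0.785 ± 0.0961 FPKM (1.09, adjusted p = 0.00534). All SDs here are between 4 pools. POLE2 lost its call with pools blocked by their number (adjusted p = 0.0126) and after rescaling (0.86, adjusted p = 0.0214), and ATAD2 after rescaling (0.86). After rescaling by the median ratio, the medians of these G2 and M and S phase lists were 0.69 and 0.10.

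Upstream of the cycle, the calls were near the 6.01% of all tested genes called higher. Of 16 tested G1 cyclins, cyclin-dependent kinases and E2F factors, 1 was called higher, namely E2F8, an E2F that represses other E2F targets (0.173 ± 0.0618 and 0.683 ± 0.146 FPKM, log2 change 1.53, adjusted p = 0.00187), which passed the filter on low values through its steatosis pools alone. CCND3, a D-type cyclin that answers growth signals, was at 14.3 ± 1.32 and 20.5 ± 2.52 FPKM (log2 change 0.51, adjusted p = 0.011). CCND1, the D-type cyclin best known in liver regeneration and named after its values were seen, had a log2 change of 0.41 (adjusted p = 0.0965). The median of this list was 0.36. Of 25 brakes of the cycle, 2 were called higher and 0 lower, with a median of 0.31. They were the checkpoint kinases WEE1, which restrains CDK1 (0.908 ± 0.0591 and 1.94 ± 0.128 FPKM, log2 change 1.02, adjusted p = 0.000644), and CHEK1 (0.243 ± 0.0685 and 0.655 ± 0.0896 FPKM, 1.15, adjusted p = 0.00416), which are themselves made in dividing cells. WEE1 and CHEK1 fell short of the limits after rescaling (0.76 and 0.94). Of the 25 brakes, 8 were higher at the second limit and 1 lower. Of the 16 G1 cyclins, kinases and E2F factors, 3 were higher there and 0 lower. Over all tested genes these shares were 26.7% higher and 2.28% lower.

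Ligands and receptors of liver growth were tested for 19 genes, of which 1 was called higher and 1 lower, with a median log2 change of 0.41, where 6.01% of all tested genes were called higher and 0.334% lower. At the second limit 8 of the 19 were higher and 1 lower, against 26.7% and 2.28% of all tested genes. CSF2RA, a receptor for GM-CSF on myeloid cells, went from 3.37 ± 0.902 to 8.71 ± 1.51 FPKM (log2 change 1.37, adjusted p = 0.00128). EREG, a ligand of the EGF receptor, was at 4.91, 5.26, 7.52 and 4.83 FPKM in the initial pools and at 1.92, 2.72, 2.47 and 1.33 FPKM in steatosis. It fell in every pool below the initial range, with a log2 change of -1.40 (adjusted p = 0.00203).

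**Figure D5:**
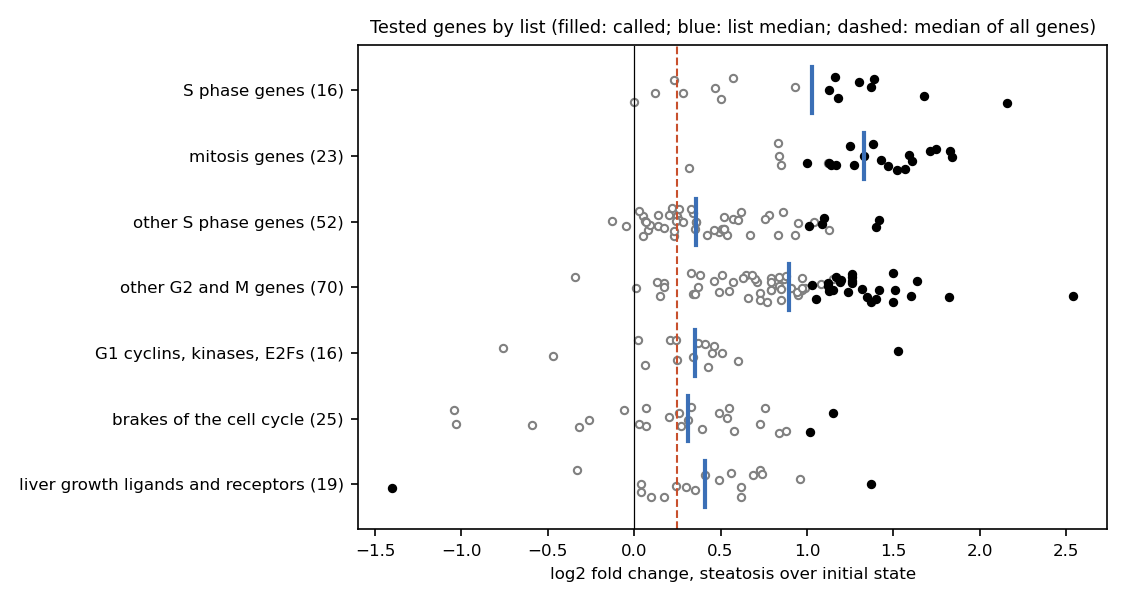
Log2 change of each tested gene, by list, with filled points for called genes, a blue bar for the list's median and a dashed line for the median of all genes tested (0.25). The mitosis, S phase and other G2 and M genes have medians of 1.33, 1.03 and 0.90, while the other S phase genes, G1, brake and growth factor lists have medians of 0.31 to 0.41.

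In bulk RNA, more dividing cells and more of a transcript per cell cannot be told apart, nor can the type of the dividing cells be read. Markers of several cell types differed between the same pools. Over all tested genes, 6.01% were called higher and 0.334% lower, and 26.7% were higher and 2.28% lower at the second limit. All 6 markers of lipid-associated macrophages (among them LGALS3, GPNMB, SPP1 and TREM2) were called higher, and their summed level was 39.3 to 61.0 FPKM in the initial state and 743 to 1766 FPKM in steatosis, with TREM2 at 0 in 2 initial pools and past the filter through its steatosis pools alone. Of 10 general macrophage markers, 2 were called higher (CD68 and MARCO), with sums of 865 to 1199 and 1264 to 1465 FPKM. At the second limit 7 of these 10 were higher and 0 lower. CD5L was lower in steatosis without overlap but did not pass that limit (adjusted p = 0.0709). Of 10 T and NK cell genes, 1 (NKG7) was called higher, with sums of 37.8 to 65.1 and 72.9 to 80.5 FPKM. NKG7 alone was at 11.2 to 15.1 and 31.4 to 38.0 FPKM, and the other 9 each overlapped between the groups. Of 5 neutrophil markers 1 (CSF3R) was called higher, with sums of 5.77 to 12.2 and 8.86 to 14.3 FPKM. Of 5 tested markers of B and plasma cells, 1 (MS4A1) was called lower, with sums over all 7 of 19.98 to 52.6 and 14.1 to 19.7 FPKM. At the second limit 3 of these 5 were lower and 0 higher, while the T and NK cell and neutrophil counts stayed the same.

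The remaining marker lists held no called gene. Hepatocyte markers, which include albumin, summed to 61944 to 94682 FPKM in the initial state and 55062 to 66036 FPKM in steatosis over 7 genes, which fits the liver label of the samples. The sums were 54.3 to 61.1 and 72.5 to 94.5 FPKM for 6 endothelial markers, 64.6 to 266 and 116 to 317 FPKM for 8 stellate cell and fibroblast markers, and 4.06 to 19.9 and 7.57 to 18.6 FPKM for 4 cholangiocyte markers. The 9 markers of red cell precursors, which also divide, summed to 264 to 1304 FPKM in the initial pools and 138 to 431 FPKM in steatosis, with GATA1 and KLF1 at 0 in some pools. Their highest pool was initial pool 3 (1304 FPKM), which was also the highest initial pool of the S phase and mitosis genes. The T and NK cell, B and plasma cell and neutrophil lists also had their highest initial sum there (65.1, 52.6 and 12.2 FPKM). The other cell type lists had their highest initial sum in another pool. Across steatosis pools 1 to 4, the lipid-associated macrophage markers summed to 1088, 1766, 1526 and 743 FPKM, lowest in pool 4, where the mitosis genes were highest. General macrophage markers summed to 1264, 1321, 1278 and 1465 FPKM in these pools, highest in pool 4. Single markers of this list differed: MARCO, CSF1R, C1QA, C1QB and C1QC were highest in steatosis pool 4. CD68, ADGRE1 and VSIG4 were lowest there, and CD163 and CD5L were neither. The neutrophil sum and the stellate cell and fibroblast sum were also highest in pool 4, and the hepatocyte sum was lowest there. The other cell type lists had neither their highest nor their lowest steatosis sum in pool 4. The part of any of these cell types in the levels of the cell cycle genes was not tested.

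Initial pool 1 stood apart from the other libraries. Genes of skeletal muscle summed to 2554 FPKM there and to 0.82 to 18.8 FPKM in the other initial pools, and genes of the stomach mucosa to 1516 FPKM and to 5.52 to 28.4 FPKM. In steatosis these lists summed to at most 0.35 and 6.28 FPKM. Without this pool, 8 S phase and 18 mitosis genes were called higher and 0 lower, with median log2 changes of 1.0 and 1.28.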

How the data were processed

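Hepatic poly-A RNA of 8 pools was sequenced as 100 bp paired-end reads. Per the labels and the methods of the study, the authors filtered the reads, mapped them with HISAT2 2.0.4 to Sus scrofa 11.1, assembled transcripts, added new coding ones to the reference, aligned to it with Bowtie2 2.2.5 and estimated expression with RSEM 1.2.12. FPKM per gene and library is what the authors deposited, with no scaling between libraries stated. Files of pairwise comparisons, which hold the fold changes, p-values and FDR of the authors, were used for gene lengths alone.

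A gene was tested if 4 or more of the 8 libraries reached 0.3 FPKM, which left 13175 of 18103. After adding 0.1 and taking log2, groups were fitted in limma 3.58.1 (R 4.3.3) without covariates, the prior variance followed a trend over mean expression, and p-values were adjusted by Benjamini-Hochberg over all these genes. Limits were those of the study. Fold changes of low genes are understated by the added 0.1. For CDC6, which did not pass, an exact permutation test (two-sided) of the mean FPKM was used. Other tables and plots used Python 3.11.15, numpy 2.4.6, pandas 2.3.3, scipy 1.17.1 and matplotlib 3.10.9. The fit was tested on simulated data.

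Fragments per gene were approximated from the smallest step between FPKM values in genes of 900 to 1500 bases (0.054 to 0.0572 FPKM per fragment and kilobase), which put the depth of the libraries at 94.4% to 100% of the deepest. Total counts per library were not used here. The fragment numbers are estimates, and the error given is the SD over the 4 pools of a group.

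Pool numbers were taken from the labels. Deviations from the group means correlated at 0.163, 0.350, 0.317 and 0.247 between pools of the same number, all over 0.1, and both groups are the same animals, so blocking by number was tried as an alternative fit. The p-values measure the spread between these pools of 2 pigs.

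Members and gene lists were chosen with earlier results of these data known. All 40 members are named, and of each other list at most 4 genes, those called with the smallest adjusted p, or up to 2 with the smallest adjusted p where fewer than 2 were called. Marker genes at 0, and called genes that passed the filter through their steatosis pools alone, are named too. Coordinates come from RefSeq for Sscrofa11.1, which matched all 40 gene IDs. MCM5 is on an unplaced sequence. Alternatives were scaling by the median ratio or the upper quartile, a pseudocount of 1, no filter, a filter of 1 FPKM, the block, and each library left out in turn.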

Additional observations from a re-analysis of the deposited data

Results flagged for a closer look

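In 3 of 80 sets of 4 pools (40 genes in 2 groups), 1 pool stood apart from the rest by Dixon's test at its 95% critical value. About 1 in 20 sets would do so by chance. TOP2A was at 1.47 FPKM in initial pool 3, where the other initial pools lay between 0.97 and 1.03 FPKM, and its log2 fold change was 1.6 (adjusted p = 0.000221) without that pool. CENPF was at 2.77 FPKM in steatosis pool 4, against 1.11 to 1.31 FPKM in the other steatosis pools, and kept its call without it (1.47, adjusted p = 0.00465) but not after scaling by the median ratio (1.52, adjusted p = 0.0105). RRM1 was at 12.79 FPKM in steatosis pool 1, below 14.46 to 14.77 FPKM in the others, and stayed uncalled without it (0.32, adjusted p = 0.0766).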

How the results depend on the processing

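The direction and side of the limits held for 483 of 538 values of single genes under the 14 alternatives, and 7 of the 26 called genes kept their call in all of them. Median ratio scaling gave 411 genes higher and 83 lower over the whole table, 17 called members (5 of S phase) and medians of 0.79 for S phase and 1.11 for mitosis. Upper quartile scaling gave 439 and 73, 5 S phase calls and medians of 0.82 and 1.14. A pseudocount of 1, which shrinks the change of scarce genes by construction, gave 395 genes higher, 7 called members (3 of S phase, 4 of mitosis) and medians of 0.53 and 0.70. With 1 library left out, 625 to 778 genes were higher and 26 to 50 lower (26 without steatosis pool 4, 28 without steatosis pool 2), 7 to 9 S phase and 17 to 18 mitosis genes were called, and the medians were 0.97 to 1.14 and 1.28 to 1.35. The sign turned for uncalled genes only: CDC45 (-0.14 by median ratio, -0.10 by upper quartile), PCNA (-0.04 by median ratio) and MCM7, with -0.27 and -0.23 by these scalings, -0.00 with a pseudocount of 1, and -0.13 to 0.07 with a library left out. Blocking by pool number gave 785 genes higher and 57 lower, with 8 S phase and 18 mitosis genes called; PLK1 lost its call and CENPE gained one, and no other member crossed these limits. The cause of these shifts was not tested. No filter and a filter of 1 FPKM moved none of the counts by more than 1.5 times. TTK, the scarcest in the initial state of these 26 called genes, rested on about 5 to 12 fragments per initial pool. Age and the way of sampling cannot be told apart from the diet.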
